A study of Mus musculus with 4 samples.

Results

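The genes described here are 8 cell-surface genes of adhesion and tissue retention, followed across intestinal T cells that have expressed *Il17a*: the integrin α chains *Itgae* (CD103), *Itga1* (CD49a), *Itga4* and *Itgal* (CD11a), the β chains *Itgb1*, *Itgb2* (CD18) and *Itgb7*, and *Cd69*. They were chosen by symbol, and all 8 were found among the 13265 genes of the deposited table. Mice on a C57BL/6 background, 7 to 8 months of age, gave YFP+CD4+ T cells sorted from small intestine, and these were profiled by scRNA-seq in droplets, where each captured RNA molecule carries a unique molecular identifier (UMI). The study asked how TGFβ signaling acts on T helper 17 (TH17) cells once they have differentiated. All mice carried *Il17a-cre* and a *Rosa26-stop-yfp* reporter, so that YFP marks cells in which the *Il17a* promoter has driven Cre.

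In TGFβR-KO mice the same Cre removes floxed *Tgfbr2*, in TGFβR-CA mice it releases a constitutively active *Tgfbr1* from a stop cassette, and TGFβR-WT controls were littermates without floxed alleles. Cre acts from the first *Il17a* expression onwards, so neither allele is altered in a cell before that point, and cells of other fates remain in the sort as long as they once expressed *Il17a*. Of 5080 cells, 2975 were labelled TGFβR-KO, 1007 TGFβR-WT and 1098 TGFβR-CA. There was 1 library each for TGFβR-KO and TGFβR-CA. The 2 TGFβR-WT samples were joined under 1 label. Their cell names fall into sets of 709 and 298 cells, called the larger and the smaller TGFβR-WT set, and no label ties a set to either sample. The number of mice in each library is not given in the sources used here.

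Integrins are αβ heterodimers in which each α chain pairs with few β chains. αEβ7 (*Itgae* with *Itgb7*) binds E-cadherin on epithelial cells and is a known target of TGFβ signaling in T cells, and α4β7 binds MAdCAM-1 on gut venules and directs lymphocytes to the intestine. α4β1 binds VCAM-1 and fibronectin, αLβ2 (LFA-1) binds ICAMs at contacts between leukocytes, and α1β1 binds collagen. CD69 opposes the egress receptor S1PR1 at the cell surface, and CD69, CD103 and CD49a are widely used to mark tissue-resident T cells.

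The labels were first set against genes that could check them. *Tgfbr2* was at 1.48 corrected UMIs per 10000 in TGFβR-KO cells and between 1.72 and 1.78 in the other 3 sets. Reads outside the deleted part would still be counted, and the end of the transcript that was read is not given in the sources used here, so *Tgfbr2* checks nothing. *Tgfbr1* was above 0 in 7.76% of TGFβR-KO cells, 11.7% of the larger TGFβR-WT set, 58.1% of the smaller TGFβR-WT set and 19.7% of cells labelled TGFβR-CA. The smaller TGFβR-WT set therefore exceeded the cells labelled TGFβR-CA in *Tgfbr1*. Whether transcripts of the active form are counted as *Tgfbr1* is not given in the sources used here, so *Tgfbr1* speaks neither for nor against that label. The name TGFβR-CA below means no more than cells labelled so, and comparisons are given against each TGFβR-WT set. *Xist* had 0 UMIs in TGFβR-KO cells and the larger set, and 9.86 and 4.59 per 10000 in the smaller set and TGFβR-CA cells. The study used mice of both sexes, and the part of sex in differences between the sets was not tested. By the methods, 1 batch held TGFβR-KO with TGFβR-WT cells and the other TGFβR-CA with TGFβR-WT cells, but no label ties a set to a batch. All 9 T cell markers were present in each set, with summed levels of 101.8 to 123.3, and CD8 markers summed to 0.0199 to 0.0453. Markers of γδ T cells summed to 0.0157 to 0.0319 in 3 sets and 0.181 in the smaller TGFβR-WT set, with 3 of 4 at 0 in each. Regulatory T cell markers summed to 1.83 in TGFβR-KO and 3.26 to 4.3 in the other sets, with *Foxp3* at 0 in TGFβR-CA cells. The B and plasma cell list summed to 1.21 to 2.65 over the 4 sets, the myeloid list to 1.9 to 2.23 and the epithelial list to 0.144 to 0.322. The median cell held 3440 to 3985 corrected UMIs, and 16 barcodes occurred in more than 1 set, in 15 TGFβR-KO cells, 15 cells of the larger set, 1 of the smaller set and 1 TGFβR-CA cell.

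Levels are UMIs after the correction of the authors for sequencing depth, summed over the cells of a group and given per 10000 corrected UMIs. With 1 library per altered genotype no test between conditions was possible. A difference was called by size alone, when the level ratio reached 1.5 in the same direction against the pooled TGFβR-WT cells and each TGFβR-WT set, with at least 4 corrected UMIs in each. Of the 8 genes, 7 had at least 200 corrected UMIs over all cells, and *Itga1* had fewer.

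Across all cells, 0 of these 7 genes were called higher and 0 lower in TGFβR-KO cells, where 2.63% of 7490 genes were called higher and 5.43% lower. In TGFβR-CA cells 0 were called higher and 1, *Itgae*, lower, beside 1.16% and 2.7% of all genes. The median log2 ratio of the 7 genes was 0.07 in TGFβR-KO and -0.49 in TGFβR-CA cells, and that of all genes was -0.13 and -0.09.

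**Figure D1:**
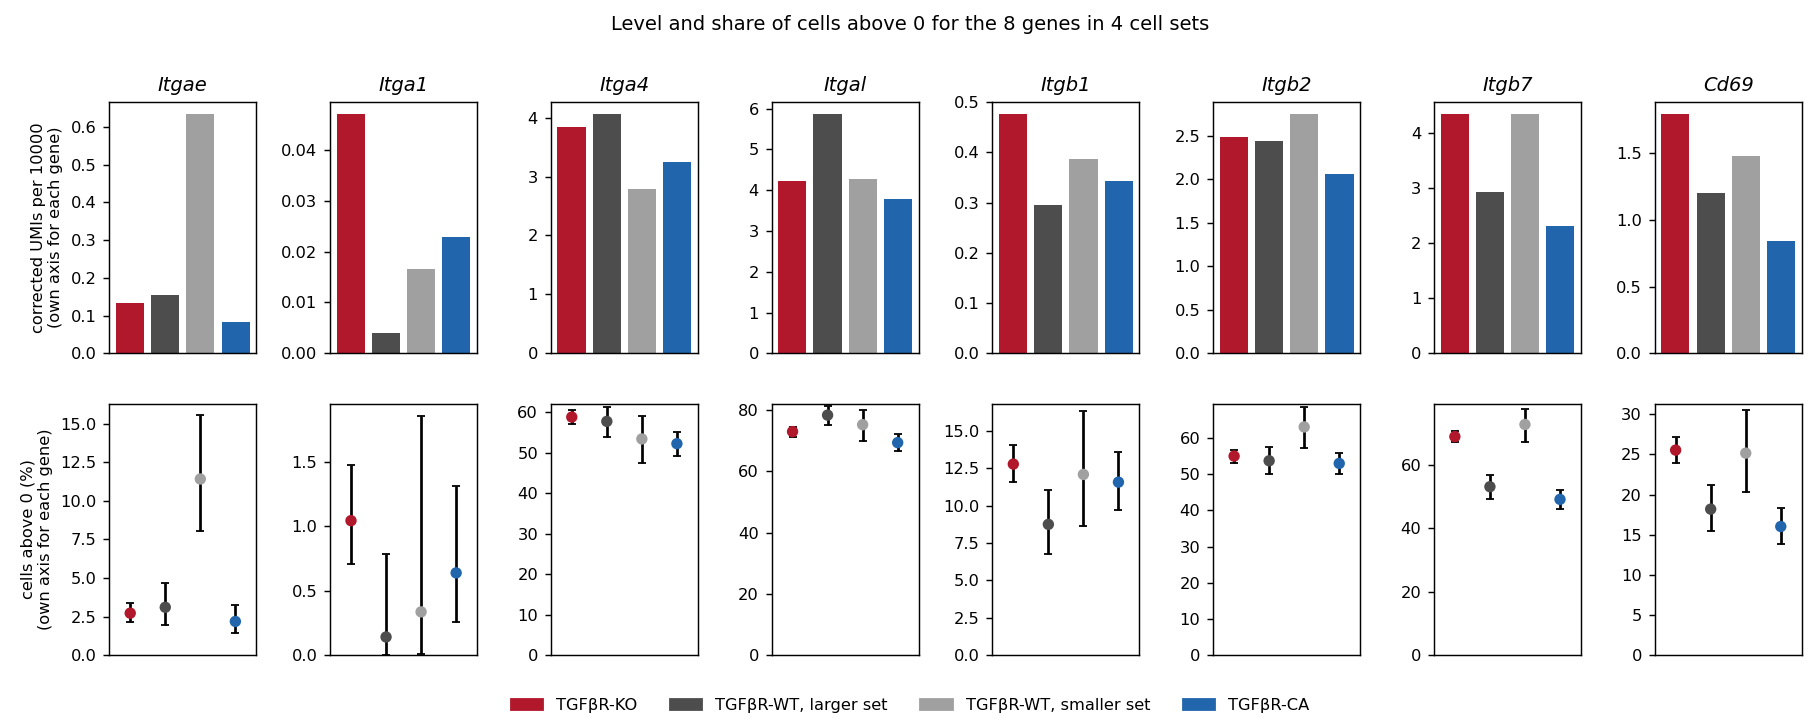
Level (top, bars, corrected UMIs per 10000) and share of cells above 0 (bottom, points with exact 95% confidence intervals for counting error) of the 8 genes in TGFβR-KO cells, the larger and smaller TGFβR-WT sets and TGFβR-CA cells, with an axis of its own for each gene. *Itgae* stood at 11.4% of cells in the smaller TGFβR-WT set and between 2.19% and 3.1% in the other sets.

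*Itgae* (chromosome 11, 73090583 to 73147446, plus strand, GRCm38) was rare. It was above 0 in 2.72% of TGFβR-KO cells (95% confidence interval 2.17 to 3.37), 3.1% of the larger TGFβR-WT set (1.95 to 4.66), 11.4% of the smaller set (8.03 to 15.6) and 2.19% of TGFβR-CA cells (1.41 to 3.23). Its level was 0.133, 0.156, 0.635 and 0.0844 per 10000 in the same order. The intervals of TGFβR-KO, TGFβR-CA and the larger set overlapped, and that of the smaller set lay above all 3. The ratio of TGFβR-KO to pooled TGFβR-WT cells was 0.427, with 0.857 against the larger and 0.21 against the smaller set. For TGFβR-CA the ratios were 0.271, 0.543 and 0.133, from 37 UMIs, and this call was not made on shares of cells in place of levels, or at a threshold of 2. A cell with any *Itgae* held a median of 1 corrected UMI, or 2 in the smaller set, so that each of these values rests on few molecules. *Haspin* lies inside *Itgae* on the opposite strand and had 273 corrected UMIs over all cells against 306 for *Itgae*. The strand setting of the counting is not given in the sources used here, so reads of the pair may not be fully told apart.

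The sum over all cells joined clusters that differed in *Itgae*. Clusters carry the names the authors gave them. In TGFβR-KO cells *Itgae* was concentrated in the CTL cluster (cytotoxic-like cells), which held 94 of 153 *Itgae* UMIs in 321 cells, a level of 0.777 and a share of 12.5% (9.05 to 16.6). Of the 13 TGFβR-WT cells named CTL, 7 had *Itgae*, too few cells for a comparison. In the Activated cluster *Itgae* was above 0 in 3.46% of TGFβR-KO cells (1.74 to 6.1), 7.95% of the larger set (3.26 to 15.7), 44.8% of the smaller set (26.4 to 64.3) and 10% of TGFβR-CA cells. TGFβR-KO cells were the lowest of the 4 sets there, and the smaller set was the highest. In the Pre-tumorigenic cluster the shares were 3.91% (1.8 to 7.3), 11.1% (2.35 to 29.2), 19.2% (9.63 to 32.5) and 3.61% (0.752 to 10.2) in the same order. In both clusters the intervals of TGFβR-KO and the larger set overlapped.

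Within both clusters *Itgae* was called lower in TGFβR-KO than in both TGFβR-WT sets. The ratio was 0.16 against pooled TGFβR-WT cells in Activated (0.294 against the larger and 0.0734 against the smaller set) and 0.152 in Pre-tumorigenic (0.293 and 0.125). It was the 1 member called there, and 0 were called higher, beside 7.09% and 7.12% of all genes called lower in these clusters and 1.0% and 1.16% higher. In TGFβR-CA cells *Itgae* was also called lower in Pre-tumorigenic, with a ratio of 0.118 against pooled TGFβR-WT cells (0.228 and 0.0974 against the sets) from 4 UMIs, and 0 members were called higher, beside 6.13% and 0.948% of all genes. In Activated the TGFβR-CA ratios were 0.408, 0.746 and 0.186, and 0 members were called, where 5.26% of all genes were lower and 0.908% higher. Whether the 2 genotypes differ from each other in *Itgae* was not tested. In GC-TFH and TR-TFH cells (follicular helper-like cells named for germinal centers and for tissue residence) 0 members were called in either direction, where 5.63% and 7.96% of all genes were called lower and 1.13% and 1.03% higher. The same held for TGFβR-CA, with 4.62% and 3.99% of all genes lower and 1.47% and 1.32% higher. *Itgae* could not be called in these clusters, since the larger set held 3 *Itgae* UMIs in each, under the minimum of 4. Its ratios of TGFβR-KO to pooled TGFβR-WT cells were 0.606 in GC-TFH, from 5 UMIs, and 0.491 in TR-TFH, from 4 UMIs. *Itgae* was above 0 in 0 to 2.13% of GC-TFH and 0.306% to 2.26% of TR-TFH cells, and 0 of 263 GC-TFH cells labelled TGFβR-CA had it, which allows a share of cells with an *Itgae* UMI of up to 1.14% and sets no limit on cells that express it undetected. The Tumorigenic cluster of TGFβR-KO cells, at 1.39%, did not stand above these shares. In the Migratory cluster *Itgae* was above 0 in 1.2% of TGFβR-KO cells (0.579 to 2.2) and 5.48% of the larger set (1.51 to 13.4), the latter from 4 UMIs. It was above 0 in 3.85% of TGFβR-CA cells there (0.469 to 13.2), and these intervals overlapped.

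**Figure D2:**
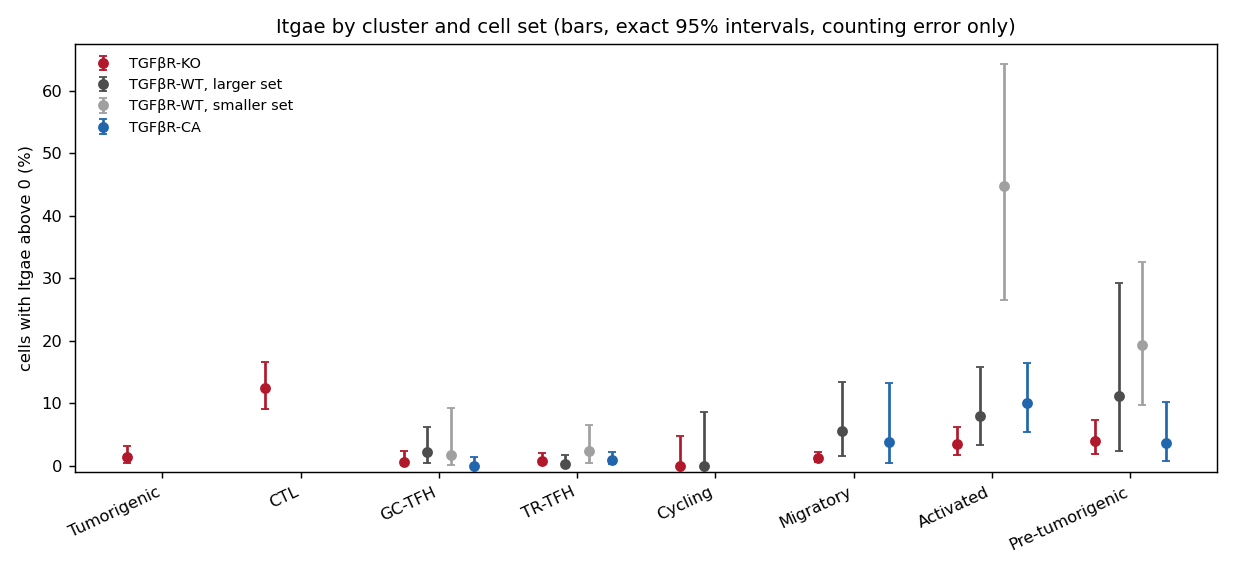
Share of cells with *Itgae* above 0 (y axis, %) in each cluster (x axis) for the cell sets with at least 20 cells in it; bars are exact 95% confidence intervals and cover counting error only. TGFβR-KO cells reached 12.5% in CTL, and in Activated they stood at 3.46% against 7.95% and 44.8% in the TGFβR-WT sets.

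Other values were read beside *Itgae*. The study describes the cells as CD4+ and TCRαβ+ and removed γδ T cells, and *Foxp3* marks regulatory T cells, which are CD4+. A UMI of a CD8, γδ or *Foxp3* marker was found in 1.55% to 4.7% of cells, and these cells held 30 of 153 *Itgae* UMIs in TGFβR-KO, 8 of 39 in the larger set, 23 of 77 in the smaller set and 3 of 37 in TGFβR-CA cells. Without them the shares in Activated were 1.69% in TGFβR-KO, 4.94% in the larger set and 36% in the smaller set, and CTL cells of TGFβR-KO stayed at 11.7%. In the smaller set *Itgae* was above 0 in 12.7% of cells with *Tgfbr1* (8.14 to 18.6) and 9.6% of cells without it (5.06 to 16.2). In TGFβR-KO the shares were 3.03% (1.23 to 6.14) and 2.7% (2.12 to 3.37), and in the larger set 6.02% (1.98 to 13.5) and 2.72% (1.59 to 4.31). In TGFβR-CA cells *Itgae* was found in 13 of 216 cells with *Tgfbr1* (95% confidence interval 3.24% to 10.1%) and 11 of 882 cells without it (0.624% to 2.22%). Only in TGFβR-CA did the intervals not overlap. They cover counting error within 1 set, and clusters were not held fixed. The part of batch or of mislabelled cells in these differences was not tested.

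*Itga1*, the collagen-binding α1 chain (chromosome 13, 114953096 to 115101964, minus strand), had 54 corrected UMIs in TGFβR-KO cells, 1 in the larger and 2 in the smaller TGFβR-WT set, and 10 in TGFβR-CA cells. It was above 0 in 1.04%, 0.141%, 0.336% and 0.638% of cells, and no ratio was formed against 3 UMIs. *Pelo* and *Gm49395* overlap it on the same strand and *Gm10734* on the opposite one, so its 67 UMIs are uncertain. In TGFβR-KO cells it lay with *Itgae* in CTL, with 26 of 54 UMIs and 4.67% of cells. Of 81 TGFβR-KO cells with *Itgae*, 9 also had *Itga1*, a share of 11.1% against 1.04% of all TGFβR-KO cells. Clusters were not held fixed in this count.

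*Itgb7*, the partner of both αE and α4 (chromosome 15, 102215995 to 102231944, minus strand), was at 4.34 per 10000 in TGFβR-KO cells, 2.92 in the larger and 4.34 in the smaller TGFβR-WT set, and 2.31 in TGFβR-CA cells. TGFβR-KO cells matched the smaller set, with a ratio of 1.0, and exceeded the larger one by 1.49 times. TGFβR-CA cells were below both, with ratios of 0.789 against the larger and 0.532 against the smaller set, which did not reach the call. *Itgb7* was above 0 in 72.8% of the *Itgae*-positive TGFβR-KO cells, and in 81.8%, 91.2% and 79.2% of those in the larger set, the smaller set and TGFβR-CA cells. Over all cells the shares were 69%, 53.2%, 72.8% and 49.2%, so the *Itgae*-positive cells exceeded their set in all 4, by the least in TGFβR-KO. The positive cells with *Itgb7* were 59 of 81, 18 of 22, 31 of 34 and 19 of 24. Clusters were not held fixed, here or for *Cd69* below. In the CTL cluster, which held most *Itgae* UMIs of TGFβR-KO, 73.8% of all TGFβR-KO cells had *Itgb7*. In the smaller set it was found in 93.1% of Activated and 86.5% of Pre-tumorigenic cells. *Cd69* was found in 27.2%, 36.4%, 41.2% and 12.5% of the *Itgae*-positive cells, against 25.5%, 18.2%, 25.2% and 16% of all cells. These shares rest on few cells, 22 of 81 in TGFβR-KO, 8 of 22 in the larger set, 14 of 34 in the smaller set and 3 of 24 in TGFβR-CA.

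*Itga4* (chromosome 2, 79255426 to 79333123, plus strand) was at 3.83 in TGFβR-KO cells, 4.06 in the larger and 2.79 in the smaller TGFβR-WT set, and 3.25 in TGFβR-CA cells. Both altered genotypes lay between the TGFβR-WT sets, so that no direction was shared by the sets. *Cerkl*, on the opposite strand, overlaps the last 2581 bases of *Itga4* and had 62 corrected UMIs over all cells against 7181 for *Itga4*.

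The chains of α4β7 had their highest levels in the same cluster in 3 of the 4 sets. Among clusters of at least 20 cells, *Itga4* was highest in Migratory in TGFβR-KO cells (6.31), the larger set (7.87) and TGFβR-CA cells (10.3), and *Itgb7* was also highest there (6.5, 5.62 and 6.94). The study described the Migratory cluster by *Itga4* among other genes, so the *Itga4* level there is not independent of the cluster name. In TGFβR-KO cells 81.1% of Migratory cells had *Itga4* and 88.2% had *Itgb7*. GC-TFH cells were low in both, with levels of 1.3 to 2.14 for *Itga4* and 1.27 to 2.32 for *Itgb7* across the 4 sets. The smaller set had 16 Migratory cells, too few to describe, and there the chains parted: its *Itga4* was highest in TR-TFH (3.63, with 2.6 in Activated) and its *Itgb7* in Activated (6.84, with 3.55 in TR-TFH). Over the 23 groups of a cluster and a set with at least 20 cells, the log2 levels of *Itga4* and *Itgb7* had Pearson's r = 0.60, as had *Itgae* and *Itgb7*. The other partner pairs were lower, at 0.46 for *Itgal* and *Itgb2*, 0.35 for *Itga1* and *Itgb1* and -0.29 for *Itga4* and *Itgb1*. The values of *Itgae* and *Itga1* rest on few molecules. The groups share libraries and are not independent. Within cells, *Itga4* and *Itgb7* were both above 0 in 44.4% of TGFβR-KO cells, 33.3% of the larger set, 38.6% of the smaller set and 28.3% of TGFβR-CA cells. The product of the separate shares was 40.5%, 30.7%, 38.9% and 25.7%. The chains thus occurred together more often than that product in 3 sets and about as often in the smaller one. Clusters were not held fixed, and they differ in both chains: in TGFβR-KO GC-TFH cells 28.6% had *Itga4* and 36.8% had *Itgb7*. Whether the chains occur together more often within a cluster was not tested. Outside Migratory cells, TR-TFH cells were at 3.36 to 4.18 for *Itga4* in the 4 sets, and Tumorigenic and CTL cells of TGFβR-KO were at 1.95 and 4.59. *Itgb7* reached 4.21 and 4.8 in these last clusters.

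The 250 bases before the RefSeq start of *Itga4* and *Itgb7* are shown because they encode the chains of α4β7, both highest in Migratory cells in 3 sets. They come from RefSeq (GRCm38.p6), which had entries for 4 of the 8 genes in the table used (*Itga1*, *Itga4*, *Itgb1* and *Itgb7*), and capitals mark CACCC, the core of the boxes bound by KLF factors, or its reverse complement GGGTG. Itga4 lies at chr2:79255176-79255425 on the plus strand and Itgb7 at chr15:102231936-102232185 on the minus strand, and the last 9 bases of the latter fall inside the GENCODE gene.
Itga4: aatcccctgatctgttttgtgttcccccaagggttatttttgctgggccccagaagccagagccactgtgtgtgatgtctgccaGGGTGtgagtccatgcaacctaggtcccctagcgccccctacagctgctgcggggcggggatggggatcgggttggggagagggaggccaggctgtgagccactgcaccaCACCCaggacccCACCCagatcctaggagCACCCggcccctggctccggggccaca
Itgb7: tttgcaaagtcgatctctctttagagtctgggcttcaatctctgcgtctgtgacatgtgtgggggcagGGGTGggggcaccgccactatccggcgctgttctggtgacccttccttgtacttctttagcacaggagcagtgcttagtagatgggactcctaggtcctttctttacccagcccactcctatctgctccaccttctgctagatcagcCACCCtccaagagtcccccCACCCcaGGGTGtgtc
Each window held 4 matches over both strands, and 2.41% of 12407 windows of genes in the table held at least 4. The windows of *Itga1* and *Itgb1*, not printed, held 2 each, and 24% of windows held at least 2. At least 1 match was found in 52% of all 32851 windows. CAGAC, a core read by SMAD proteins, occurred 1 time before *Itga4* and 2 times before *Itgb7* on either strand, and 42.2% of windows had it. TGTGGT, a RUNX core, occurred 1 time before *Itga4*, where it shares letters with the first CACCC, and 0 times before *Itgb7*, and 14% of windows had it. A match shows that the letters are present, not that a factor binds there.

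**Figure D3:**
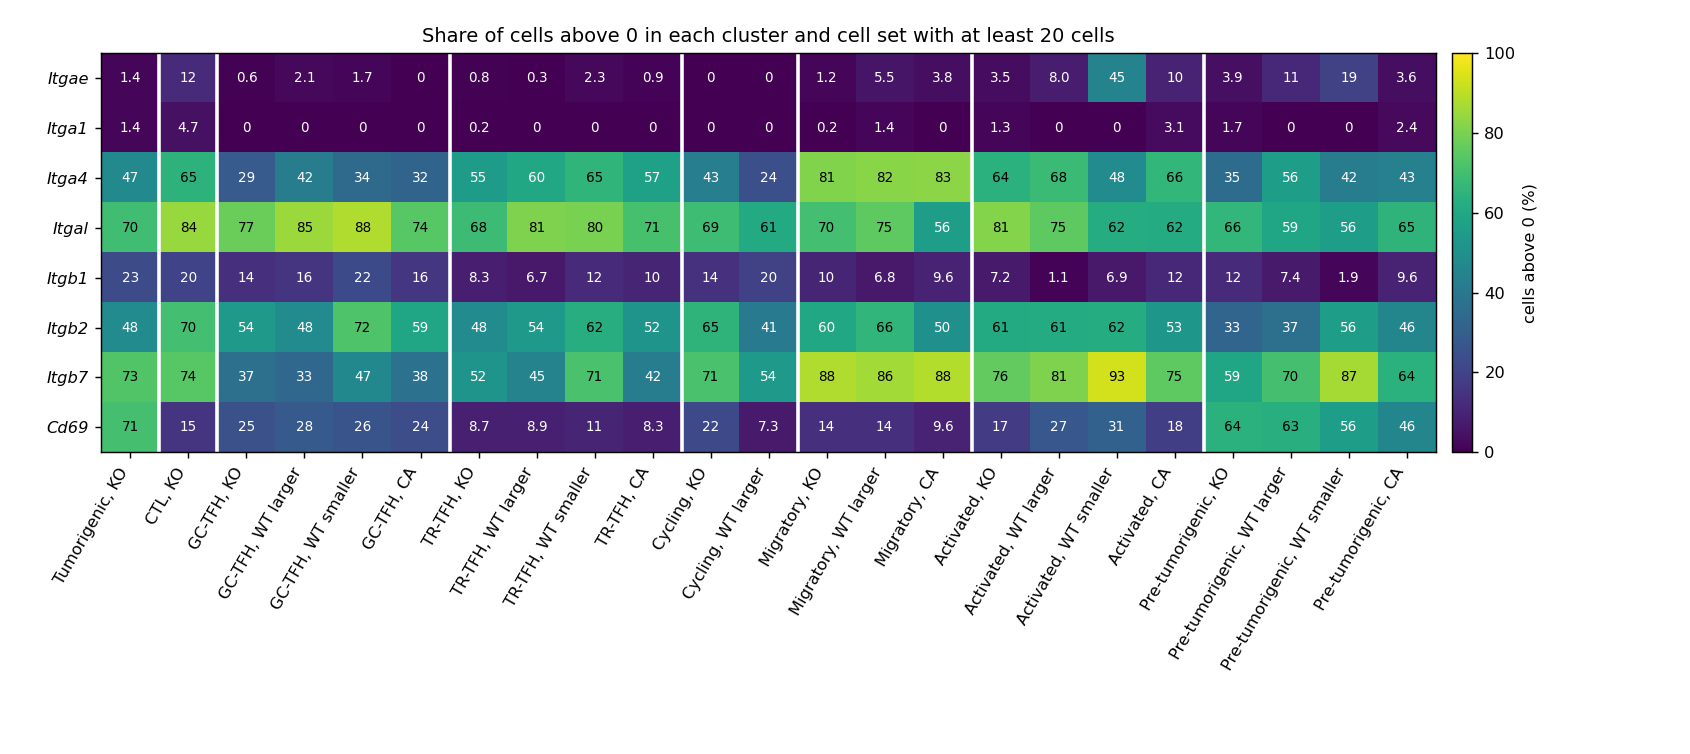
Share of cells above 0 (color and printed value, %) for the 8 genes (rows) in the 23 groups of a cluster and a cell set with at least 20 cells (columns). *Itga4* and *Itgb7* were above 0 in over 80% of Migratory cells in each set shown, and *Cd69* was highest in the Tumorigenic and Pre-tumorigenic clusters.

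*Itgal* (chromosome 7, 127296260 to 127335138, plus strand), the α chain of LFA-1, was at 4.23 in TGFβR-KO cells, 5.87 in the larger and 4.28 in the smaller TGFβR-WT set, and 3.79 in TGFβR-CA cells. TGFβR-KO cells were level with the smaller set (ratio 0.988) and below the larger one (0.72), and neither this nor the TGFβR-CA ratios of 0.645 and 0.885 made a call. *Itgb2* (chromosome 10, 77530252 to 77565708, plus strand), its β chain, had the smallest ratio between its highest and lowest set among the 8 genes, at 2.49, 2.45, 2.75 and 2.07 in the same order. Both chains were highest in CTL among TGFβR-KO clusters, at 6.03 for *Itgal* and 4.3 for *Itgb2*. In both TGFβR-WT sets and in TGFβR-CA cells *Itgal* was instead highest in GC-TFH (6.95, 5.71 and 4.63), close to TR-TFH in the larger set (6.84). *Itgal* and *Itgb2* were found together in 42% of TGFβR-KO cells, near the 40.1% given by the product of their shares. Pre-tumorigenic cells of TGFβR-KO were the lowest of its clusters for both chains, at 3.22 for *Itgal* and 1.22 for *Itgb2*. In Activated cells *Itgal* was at 5.3 in TGFβR-KO, 4.38 in the larger set, 3.17 in the smaller set and 2.85 in TGFβR-CA cells, an order that differed from that over all cells.

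*Itgb1* (chromosome 8, 128685654 to 128733200, plus strand), the β chain that pairs with α1, α4 and others, was at 0.476 in TGFβR-KO cells, 0.295 in the larger and 0.387 in the smaller TGFβR-WT set, and 0.342 in TGFβR-CA cells. TGFβR-KO cells were the highest set, 1.61 times the larger and 1.23 times the smaller set, short of a call. *Itgb1* was highest in the Tumorigenic cluster of TGFβR-KO cells, with 168 of 547 UMIs, a level of 1.19 and 22.7% of cells, followed by CTL at 0.645. In the other TGFβR-KO clusters its level was 0.229 to 0.465. TGFβR-WT had 5 Tumorigenic cells, so this cluster offers no comparison between genotypes. Of the 4 clusters with at least 20 cells in every set, GC-TFH had its lowest *Itgb1* in TGFβR-KO at 0.43, with 0.475 in the larger set, 0.662 in the smaller set and 0.485 in TGFβR-CA cells. In TR-TFH cells the levels were 0.233, 0.232, 0.43 and 0.302 in the same order. In Activated cells they were 0.229, 0.0311, 0.163 and 0.319 and in Pre-tumorigenic cells 0.448, 0.22, 0.0495 and 0.282. TGFβR-KO cells were thus above both TGFβR-WT sets in the last 2 clusters, where the TGFβR-WT levels rest on 3 UMIs each and no ratio was formed. Both *Itga4* and *Itgb1* were above 0 in 7.63% of TGFβR-KO cells, beside a product of shares of 7.51%.

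*Cd69* (chromosome 6, 129267325 to 129275436, minus strand) was at 1.79 in TGFβR-KO cells, 1.2 in the larger and 1.48 in the smaller TGFβR-WT set, and 0.84 in TGFβR-CA cells. TGFβR-KO cells were above and TGFβR-CA cells below both TGFβR-WT sets, with ratios to the larger and smaller set of 1.49 and 1.22 for TGFβR-KO and 0.697 and 0.569 for TGFβR-CA, and neither was called. *Cd69* differed far more between clusters. It was highest in Pre-tumorigenic cells in all 4 sets, at 7.4 in TGFβR-KO, 11 in the larger and 4.51 in the smaller TGFβR-WT set, and 3.04 in TGFβR-CA cells, and TGFβR-KO Tumorigenic cells were at 5.63. By cells, 63.9%, 63%, 55.8% and 45.8% of the Pre-tumorigenic cells had *Cd69* in the same order, and 70.6% of the TGFβR-KO Tumorigenic cells. GC-TFH cells were at levels of 1.37 to 1.77 and TR-TFH cells, the cluster named for tissue residence, at 0.303 to 0.411. The Tumorigenic and Pre-tumorigenic clusters made up 19.9% of TGFβR-KO cells and held 69.9% of their *Cd69* UMIs. In TGFβR-WT they made up 8.34% of cells and held 42.8%.

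A list of 20 genes that tissue dissociation is known to induce, among them *Fos*, *Junb* and heat shock genes, was high where *Cd69* was high. The study described the Pre-tumorigenic cluster by such stress genes, several of them in the list, so its level there is not independent of the cluster name. Its summed level was 474 in TGFβR-KO, 292 in the larger set, 310 in the smaller set and 280 in TGFβR-CA cells of the Pre-tumorigenic cluster, 218 in TGFβR-KO Tumorigenic cells, and 35.6 to 79.5 in the other groups. Within the Pre-tumorigenic cluster the orders differed, since the list was highest in TGFβR-KO and *Cd69* in the larger set. The part of dissociation in the *Cd69* values was not tested. Of the 18 list genes with at least 200 UMIs, 4 (*Fosb*, *Junb*, *Nr4a1* and *Hspa1a*) were called higher and 0 lower in TGFβR-KO cells (2.63% and 5.43% of all genes), and 1 (*Fos*) was called lower in TGFβR-CA cells (2.7%).

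**Figure D4:**
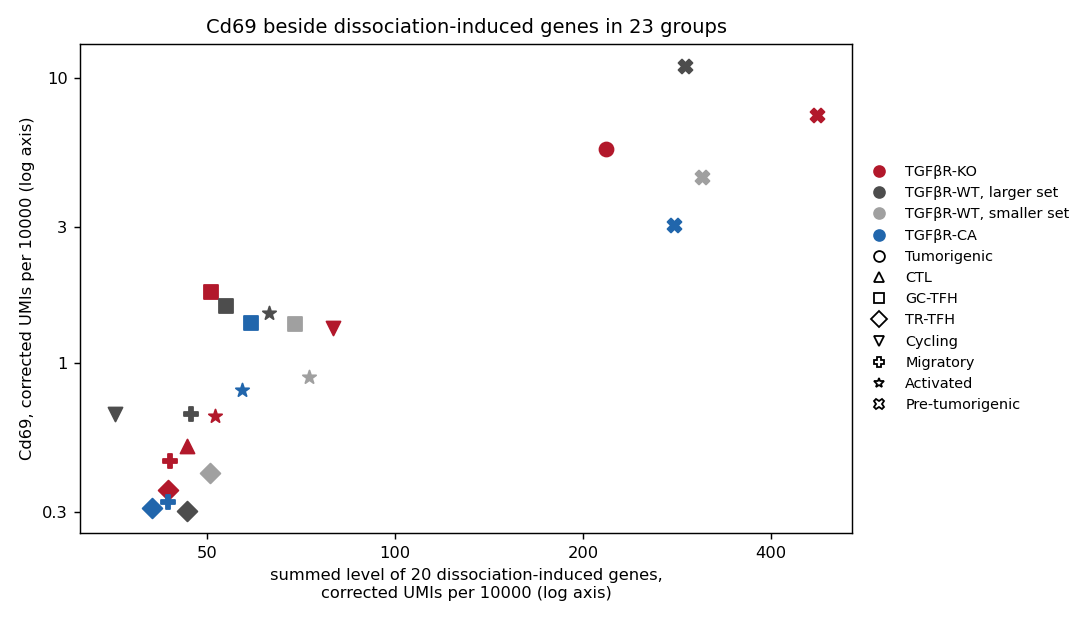
Level of *Cd69* (y axis, log scale) against the summed level of 20 dissociation-induced genes (x axis, log scale), both in corrected UMIs per 10000, in the 23 groups of a cluster (marker shape) and a cell set (color). The 4 Pre-tumorigenic groups and TGFβR-KO Tumorigenic cells, with summed levels of 218 to 474, hold the 5 highest *Cd69* levels.

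Because the conditions differ in cluster makeup, the level of each cluster was also averaged with the cluster shares of all TGFβR-WT cells. TGFβR-KO cells were 27.9% Migratory and 17.4% TR-TFH, whereas TGFβR-WT cells were 8.84% and 45.7%. With equal shares, the ratio of TGFβR-KO to pooled TGFβR-WT moved from 1.46 to 0.989 for *Itgb1*, from 1.28 to 0.947 for *Itgb7* and from 1.39 to 1.02 for *Cd69*. For *Itga4*, *Itgal* and *Itgb2* it came to 0.857, 0.81 and 0.868. *Itgae* went the other way, from 0.427 to 0.201, at a weighted level of 0.0614 in TGFβR-KO, 0.165 in the larger and 0.621 in the smaller TGFβR-WT set, and was then called lower. The weighted levels take in every cluster, also groups under 20 cells. In the smaller set these include 3 CTL cells with an *Itgae* level of 8.21 and 16 Migratory cells with 1.33. In TGFβR-CA cells the ratio of *Itgae* was 0.271 without and 0.311 with equal shares.

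**Figure D5:**
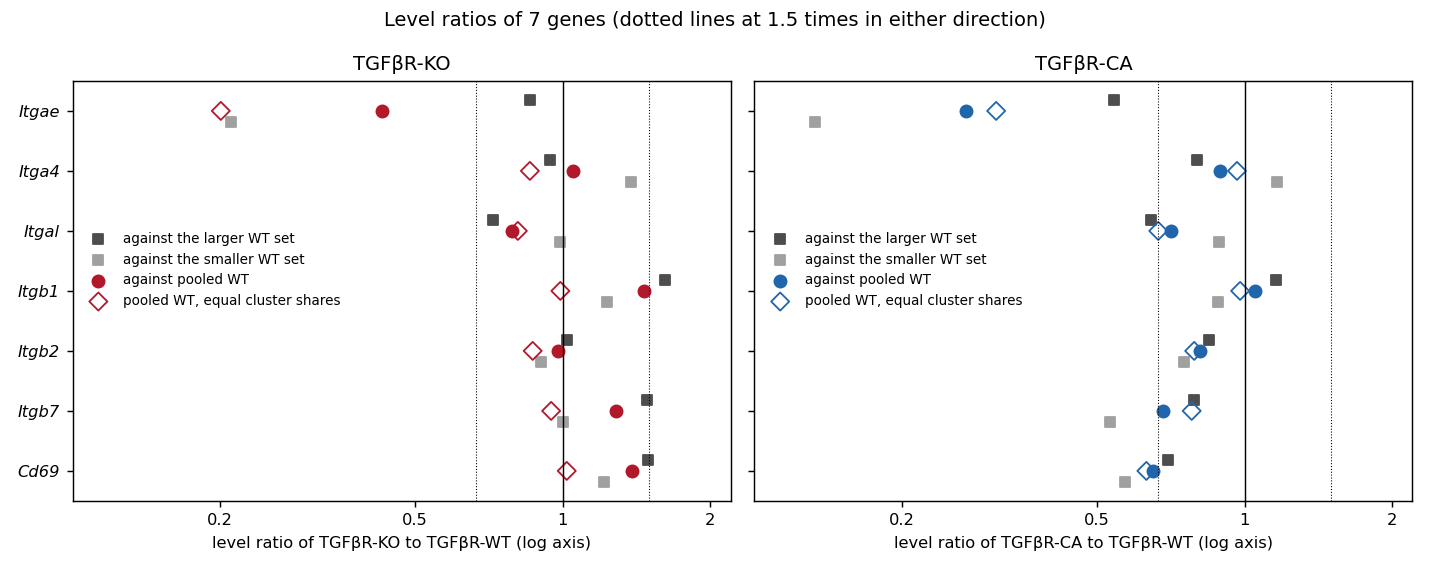
Level ratios (x axis, log scale) of TGFβR-KO (left) and TGFβR-CA (right) to TGFβR-WT for the 7 genes with at least 200 corrected UMIs. Squares are ratios to each TGFβR-WT set, filled circles to the pooled cells, and open diamonds ratios to the pooled cells at equal cluster shares. At equal shares *Itgae* in TGFβR-KO falls to 0.201 and *Itgb1*, *Itgb7* and *Cd69* come to between 0.947 and 1.02.

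Genes that act with integrins were read from lists with the same call, beside 2.63% of all genes called higher and 5.43% lower in TGFβR-KO cells and 1.16% and 2.7% in TGFβR-CA cells. Among other integrin chains, 4 of 13 in the table had at least 200 UMIs, and *Itgb3*, the β chain of the vitronectin receptor, was called higher in TGFβR-KO cells, at 0.38 against 0.156 in the larger set and 0.19 in the smaller one. *Itga2*, a second collagen-binding chain, was at 0.24 in TGFβR-KO cells and 0.0798 in the larger set, with 1 UMI in the smaller set, and so could not be called. *Itgav* and *Itga6* were not called. *Itgb8*, a chain that binds latent TGFβ, had only 141 UMIs and was named after its values were seen: it was at 0.194 in TGFβR-CA, 0.0638 in the larger and 0.0659 in the smaller TGFβR-WT set, and 0.0279 in TGFβR-KO cells. Of 27 genes of integrin activation, 3 were called higher in TGFβR-KO cells: *Rasgrp2*, an activator of RAP1 (1.98 times pooled TGFβR-WT), *Cytip*, a cytohesin binder that restrains adhesion (1.88), and *Cd47*, an integrin-associated protein (1.58). *Rasgrp2* was called lower in TGFβR-CA cells (0.465). *Fyb*, *Lcp1*, *Myh9* and *Skap1*, the highest of the others, were not called, and the 2 ligands with enough UMIs, *Icam1* and *Icam2*, were not called either.

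Of 15 residency genes, 4 were called higher in TGFβR-KO cells, beside 2.63% of all genes: *Nr4a1* (4.71 times), *Bhlhe40* (4.28), the chemokine receptor gene *Cxcr6* (2.22) and *Cd160* (1.91). In TGFβR-CA cells *Cxcr6* (0.473) and *Runx3* (0.555), the latter a regulator of CD103 in T cells, were called lower, beside 2.7% of all genes. *Nr4a1* also belongs to the dissociation list. The study described the Tumorigenic cluster by *Bhlhe40* and *Nr4a1* among others, and the CTL cluster by *Cd160* among others. These clusters made up 12.1% and 10.8% of TGFβR-KO cells, and 0.497% and 1.29% of TGFβR-WT cells. Of 10 genes of egress and recirculation, *Klf2* (4.06), a transcription factor that drives *S1pr1*, and *S1pr4* (1.83) were called higher in TGFβR-KO cells, and *Ccr7* (0.439) and *Tcf7* (0.548) lower, beside 2.63% and 5.43% of all genes. *S1pr1* was at 1.16 in TGFβR-KO cells, 1.01 in the larger set, 0.412 in the smaller set and 0.47 in TGFβR-CA cells, and was not called. Of 9 TGFβ response genes, 6 were called lower in TGFβR-KO cells, led by *Pmepa1* (0.116) and *Ldlrad4* (0.182), beside 5.43% of all genes, and 0 in TGFβR-CA cells. Their summed level was 3.28 in TGFβR-KO, 6.08 in the larger and 10.7 in the smaller TGFβR-WT set, and 6.68 in TGFβR-CA cells. *Tgfbr1*, a member of the list, made up 2.79 of the sum in the smaller set. The smaller set was highest in both the list and *Itgae*. TGFβR-CA cells were near the larger set in the list and lowest in *Itgae*. A link between the list and *Itgae* was not tested.

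For each gene the 3 most alike were taken by Pearson's r of log2 levels over the same 23 groups, as a description. *Itgae* was most like *Abi3* (0.90), *Tor1aip1* (0.85) and *Hic1* (0.84), and *Itgb7* most like *Lsp1* (0.91), *Grap2* (0.88) and *Acsbg1* (0.86). *Lsp1* is also among the genes by which the study described the Migratory cluster. *Cd69* was most like *Atf4* (0.90), *Junb* (0.88) and *Fosb* (0.88), the last 2 being dissociation-induced genes. *Itga4* was most like *Ripor2* (0.82), *Crlf3* (0.81) and *Mapk14* (0.79). For *Itgal* the closest were *Ptprc* (0.82), *Trac* (0.82) and *Drg2* (0.79), and for *Itgb2* *Dnajb12* (0.80), *Tapbp* (0.76) and *Man2b1* (0.76). For *Itgb1* they were *Adora2a* (0.77), *Abcb1b* (0.77) and *Gramd3* (0.74). *Itga1*, at 0 in most groups, gave *Klk8* (0.71), *Sytl2* (0.69) and *Jaml* (0.68), which rests on few molecules. The values of *Itgae* also rest on few molecules.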

How the data were processed

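The authors deposited 1 table, 13265 genes by 5080 cells, of SCTransform-corrected UMI numbers on a natural log scale after adding 1, and a condition and cluster name for each cell. Per the submitters' processing notes, Cell Ranger 3.1.0, Seurat and mm10 were used. By the methods, cells with 1000 to 5000 detected genes and under 10% mitochondrial UMIs were kept, batches were integrated on 3000 features, and γδ T cells and epithelial cells were removed. The correction sets cells to a common depth, so the original depth of a library is not carried by the values.

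The log was undone, which gave whole numbers within 1e-06. A level is corrected UMIs per 10000 corrected UMIs summed over a group. The unit is not raw counts and each altered genotype has 1 library, so no count model or test was run. Calls needed a ratio of 1.5 against the pooled TGFβR-WT cells and both TGFβR-WT sets and at least 4 corrected UMIs in each. Percentages called were computed over 7490 genes with at least 200 corrected UMIs. Ratios on the log2 scale had 0.1 per 10000 added. Shares have exact Clopper-Pearson 95% intervals, and a count of 0 is given with the limit set by 3 counts; both cover counting error only. Groups under 20 cells were not described, and no doublet caller was run. The calling step was tested on simulated data in which the TGFβR-WT sets were drawn from the same rates. The real sets differed, so the simulation does not show how the rule acts on such differences. No column of the table was left unused (0 columns).

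All 8 genes are named; of each other list, the called genes and up to 4 others with the highest summed level were candidates for naming, with the 3 genes most alike to each of the 8. The 8 genes and the lists were chosen with earlier results of these data known. Alternatives changed the fold threshold, the TGFβR-WT set, the measure, the cluster weights and the cells included; 2 that left out cells with other marker genes were added after seeing the data. Gene positions come from GENCODE vM21 (GRCm38, also called mm10), matched by symbol. Python 3.11.15, numpy 2.4.6, pandas 2.3.3, scipy 1.17.1 and matplotlib 3.10.9 were used.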

Additional observations from a re-analysis of the deposited data

Results flagged for a closer look

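*Itgal* and *Cd69* stood above both TGFβR-WT sets in some clusters of TGFβR-KO cells and below both in others. The ratio of TGFβR-KO to pooled TGFβR-WT cells for *Itgal* was 1.31 in Activated, where TGFβR-KO was above each set, and 0.774 in GC-TFH, 0.703 in TR-TFH and 0.889 in Pre-tumorigenic cells, where it was below each set. For *Cd69* the ratio was 1.17 in GC-TFH cells, above each set, and 0.492 in Activated cells, below each set. These differences between clusters were not tested, and none of the 6 ratios reached 1.5 in either direction against both sets.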

How the results depend on the processing

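With 1 library per altered genotype, a difference between libraries and one between genotypes cannot be told apart. No paired analysis was possible because no label ties a TGFβR-WT set to a batch.

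The number of the 7 genes called higher in TGFβR-KO cells was 0, and 1 (*Itgb1*) against the larger TGFβR-WT set alone. The number called lower was 0, and 1 (*Itgae*) against the pooled cells alone, against the smaller set alone, with equal cluster shares, without cells holding a B, myeloid or epithelial marker UMI, and without Tumorigenic and CTL cells. The number called lower in TGFβR-CA cells was 1 (*Itgae*), and 0 at a fold threshold of 2 or on shares of cells. It was 3 (*Itgae*, *Itgb7* and *Cd69*) at the alternative threshold below 1.5 or against the smaller set alone, and 2 against the pooled cells alone or without marker-holding cells (*Itgae* and *Cd69*) and against the larger set alone (*Itgae* and *Itgal*). That marker alternative removed 58.4% to 71% of cells, since *Cst3* and *Ighm* were found in many cells of every set; with these 2 markers left aside it removed 10.3% to 14.8% and changed no count of calls, nor did leaving out cells with CD8, γδ or *Foxp3* UMIs, both chosen after seeing the data.

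Of 140 level ratios recomputed, 16 moved by more than the spread between the TGFβR-WT sets and 12 lay on the other side of 1. For *Itgae* that measure says little, since its level in the 2 TGFβR-WT sets differed 4.08 times: its ratio ran from 0.201 to 0.857 in TGFβR-KO and from 0.133 to 0.543 in TGFβR-CA. With a minimum of 50 in place of 200 corrected UMIs, 1.86% instead of 1.16% of genes were called higher in TGFβR-CA cells. Low counts limit *Itgae* (306 corrected UMIs in all) and *Itga1* (67).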
